A study of Mus musculus with 8 samples.

Results

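The data are lists of chromatin sites bound by phosphorylated STAT3β in mouse embryonic fibroblasts, compared between 30 and 180 min of oncostatin M. The cells were STAT3-/- fibroblasts that re-expressed STAT3β alone, the shorter spliceform of STAT3, which lacks the C-terminal transactivation domain of STAT3α. They were given 1 nM 4-hydroxytamoxifen for 48 h or longer to switch on the construct, were kept without serum for 16 h and then received human oncostatin M at 10 ng/mL for 0, 30 or 180 min. A parallel set of STAT3-/- fibroblasts re-expressed STAT3α and was treated the same way. DNA was recovered with an antibody to tyrosine-phosphorylated STAT3 and sequenced (ChIP-seq), and 1 peak list from merged reads represents each spliceform and time. Constructs were retained by puromycin selection, and whether each line is 1 clone is not stated in the labels. Peak lists hold no expression values, so the fibroblast label could not be checked by markers.

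Sites were sorted by identical chromosome, start and end on the mm9 genome. A site in both STAT3β lists was kept at 180 min, a site in the 30 min list alone was lost by 180 min, and a site in the 180 min list alone was new. The union of both lists held 3893 sites, of 5343 distinct sites with an exact position in all 6 ChIP lists of the series. Of these, 118 were kept, 3773 were lost and 2 were new.

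Oncostatin M belongs to the interleukin-6 family of cytokines. It binds receptors that contain the shared subunit gp130, and the attached JAK kinases phosphorylate a tyrosine near the C-terminus of STAT3. Phosphorylated STAT3 forms dimers, enters the nucleus and binds short palindromic elements in promoters and enhancers. Among its known targets is the gene of SOCS3, which binds gp130 and JAK kinases and so limits the signal that induced it. STAT3β keeps the phosphorylated tyrosine and the DNA-binding domain, so the antibody and the assay apply to it as to the full-length form. The comparison asks how the early and late sites of this spliceform relate. No annotation or sequence of mm9 was used here, so loci are named by their position, counted from 1, and no gene is assigned to them.

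Of the 3891 sites listed at 30 min, 118 were listed again at 180 min (3.03%, 95% exact binomial interval 2.52 to 3.62%). The 3773 lost sites made up 97.0% of the early list. The late list held 120 sites, so the 118 kept sites were 98.3% of it, and the 2 new sites were 1.67% (interval 0.202 to 5.89%). The late list was thus almost wholly a small part of the early one. All 120 late sites were 400 bp wide. The 12 wider sites of the 30 min list were all among the lost ones, and 3761 of the lost sites were 400 bp wide as well.

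The same split in STAT3α cells gave 35 kept sites of 3725 (0.940%, interval 0.655 to 1.30%), 3690 lost and 5 new sites of 40 at 180 min. The STAT3β interval lies above the STAT3α interval. With 1 list per cell line and time this compares libraries, and the effects of spliceform, line and sequencing depth cannot be told apart. The lists hold no peak height, score or read number. A site missing at 180 min was therefore not shown to be unbound, and kept sites could not be ranked by strength. All intervals cover counting over sites only. No test over sites was made, since sites of a library share its depth and neighbouring sites share a locus.

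Kept STAT3β sites were mostly listed for STAT3α too, a readout the sorting did not use. The STAT3α 30 min list held 112 of the 118 kept sites (94.9%, interval 89.3 to 98.1%) and 2166 of the 3773 lost sites (57.4%, interval 55.8 to 59.0%). The STAT3α 180 min list held 27 kept sites (22.9%, interval 15.7 to 31.5%) and 10 lost sites (0.265%, interval 0.127 to 0.487%). The 118 kept sites thus divided into 27 that were late sites of both spliceforms, 85 that STAT3α held at 30 min but not at 180 min, and 6 that no STAT3α list held. Of the lost sites, 1605 (42.5%) were in no other list, and 2156 (57.1%) were in the STAT3α 30 min list and nowhere else.

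Read from the early list forward, the kept share was higher from each class to the next, with intervals that did not overlap. STAT3β 30 min sites that STAT3α cells lacked at 30 min were kept in 6 of 1613 cases (0.372%, interval 0.137 to 0.808%). Sites that STAT3α held at 30 min but not at 180 min were kept in 85 of 2243 cases (3.79%, interval 3.04 to 4.66%). Sites that STAT3α held at 180 min were kept in 27 of 37 cases (73.0%, interval 55.9 to 86.2%). Of these 37 sites, 2 were not in the STAT3α 30 min list, and both were lost. Over the 2278 sites in both 30 min lists, 2158 (94.7%) were gone from both 180 min lists, 85 were kept in STAT3β cells only and 8 in STAT3α cells only.

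**Figure D1:**
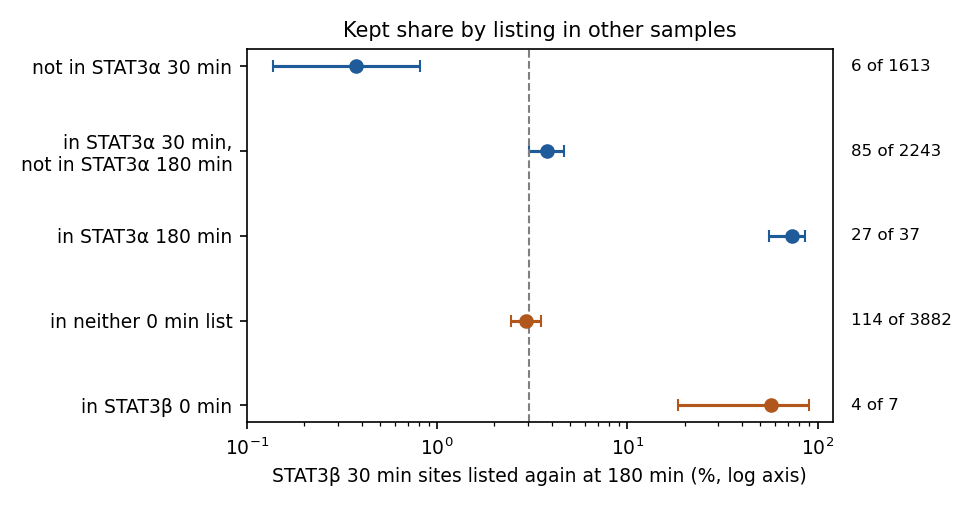
Share of STAT3β 30 min sites listed again at 180 min (percent, log axis) by their listing in other samples, with 95% exact binomial intervals, the number kept and the number of sites in each class, and the share of all 3891 sites as a dashed line. The share was 0.372% for sites outside the STAT3α 30 min list, 3.79% for those in it but not in the STAT3α 180 min list, and 73.0% for those in the STAT3α 180 min list. The blue classes and the brown classes sort overlapping sites by different lists.

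Some sites listed before cytokine were listed again late. The STAT3β 0 min list held 8 peaks of exact position, of which 7 were in the 30 min list. Of these 7, 4 were kept (57.1%, interval 18.4 to 90.1%), against 114 of 3882 sites in neither 0 min list (2.94%, interval 2.43 to 3.52%). The kept ones were chr8:87500257-87500656, chr15:6824175-6824574, chr15:38400117-38400516 and chr19:4988979-4989378. All 4 were in both STAT3α lists of treated cells, and the chromosome 19 site was in the STAT3α 0 min list as well. Of the 5 STAT3β 30 min sites in the STAT3α 0 min list, 1 was kept (20.0%, interval 0.505 to 71.6%). The 4 kept sites differed in their surroundings. The chromosome 19 site and the site at 6824175 had no other STAT3β site within 50 kb, and the nearest lay 373 kb and 137 kb away. The site at 38400117 had 2 within 50 kb, and the chromosome 8 site had 5.

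The 3 preinduction sites that were listed at 30 min and lost lay at 21754768 on chromosome 9, 24999947 on chromosome 11 and 4626165 on chromosome 17. None of them had another STAT3β 30 min site within 50 kb, and the nearest lay 182 kb, 1844 kb and 282 kb away. Of all 3773 lost sites, 58.7% had none within 50 kb. The chromosome 9 site was still listed in STAT3α cells at 180 min. With 7 sites the share is imprecise.

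A further 4 peaks of the STAT3β 0 min list are known only to the nearest Mb, because positions of 100 Mb and more in that list are rounded to 3 digits. In the 30 min list, 34 sites round to these positions. Of them, 5 were kept (14.7%, interval 4.95 to 31.1%), against 3.03% of all 3891 sites. Each rounded position had at least 1 kept site that would round to it. At 101 Mb on chromosome 11 it was 100800888 to 100801287, 1 of 9 such sites. At 118 Mb on chromosome 11 these were 117824769 and 117830560, of 16 such sites. Of these 16, 9 lay within 63.3 kb, both kept ones among them. On chromosome 4, 133369662 was 1 of 7 sites that round to 133 Mb, and 149329155 was 1 of 2 that round to 149 Mb. Which site each rounded peak stands for cannot be read from the list, so the 14.7% is not a share of preinduction sites. Neither rounded peak of the STAT3α 0 min list, at 158 Mb on chromosome 2 and 105 Mb on chromosome 14, had a kept STAT3β site that rounds to it.

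The 2 new sites had different histories. The chromosome 15 site, chr15:84659817-84660216, was in the 0 min lists of both spliceforms, absent from both 30 min lists and absent from the STAT3α 180 min list. Its nearest STAT3β 30 min site lay 26.6 kb away and its nearest STAT3α 30 min site 115 kb away. It was thus listed before cytokine and again after 180 min, with a gap at 30 min, in STAT3β cells. The chromosome 7 site, chr7:50720917-50721316, was in no other list of the series. It lay 106 kb from the nearest 30 min site of either spliceform and 1689 kb from the nearest kept site. No 30 min site had its centre within 1 kb of either new site. In the comparisons made, sites that overlapped between lists had identical coordinates. The lists therefore could not show whether an early peak had shifted slightly.

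STAT3α cells lacked 6 of the kept sites at both times. They were chr4:107790959-107791358, chr4:120240626-120241025, chr4:135695969-135696368, chr5:77801989-77802388, chr8:86628601-86629000 and chr10:89207427-89207826. Chromosome 4 carried 3 of the 6, beside 9 of all 118 kept sites and 264 of the 3891 early sites. With 6 sites this was not tested. No STAT3α 30 min site lay within 50 kb of any of them, and the nearest were 107 to 437 kb away. Such isolation was common, since 1070 of 1607 lost sites outside the STAT3α 30 min list (66.6%) and 66 of 112 kept sites in it (58.9%) had no other STAT3α 30 min site within 50 kb. The site at 107790959 had 1 other STAT3β 30 min site within 50 kb, at 43.9 kb, and the other 5 had none. None was in a 0 min list.

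The 10 lost sites that STAT3α cells listed at 180 min are the converse class. They lay at 132651046 on chromosome 4, 32435435 on chromosome 5, 6362777 on chromosome 7, 14072529 on chromosome 8, 21754768 on chromosome 9, 48807593 and 98812629 on chromosome 11, 45625464 on chromosome 14, 72398960 on chromosome 15 and 38039758 on chromosome 18. The sites on chromosomes 7 and 8 were the 2 that STAT3α cells did not list at 30 min. In 8 of the 10 no other STAT3β 30 min site lay within 50 kb, against 2214 of all 3773 lost sites (58.7%). The difference was not tested. The sites on chromosomes 8, 9 and 15 were in the STAT3α 0 min list.

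The distance to the nearest other early site was much alike for kept and lost sites. Of the kept sites, 24 (20.3%, interval 13.5 to 28.7%) had another STAT3β 30 min site within 10 kb, against 690 lost sites (18.3%, interval 17.1 to 19.6%). Within 50 kb the shares were 41.5% of the kept (49 sites) and 41.3% of the lost (1559 sites). The nearest other early site lay at a median of 77.7 kb from a kept site and 74.7 kb from a lost one. The middle 50% of distances ran from 20.2 to 186 kb for kept and from 17.8 to 222 kb for lost sites. A difference between the sets was not detectable in these shares, and the interval for kept sites is wide. The mean number of neighbours within 50 kb was 0.898 for kept and 0.686 for lost sites, with a median of 0 in both.

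**Figure D2:**
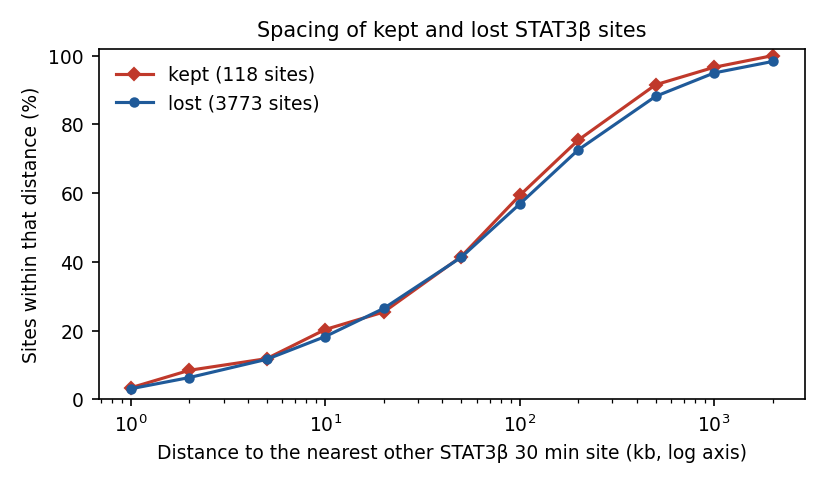
Cumulative share of sites (percent) against the distance in kb to the nearest other STAT3β 30 min site (log axis), for the 118 kept sites and the 3773 lost sites. The curves run close together, with 41.5% of kept and 41.3% of lost sites within 50 kb.

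Most kept sites were lone sites, as were most lost sites. In 69 of the 118 kept sites (58.5%) no other STAT3β 30 min site lay within 50 kb, against 2214 of 3773 lost sites (58.7%). Of these 69 kept sites, 6 had a further STAT3α 30 min site within that distance. Lone kept sites were late sites of STAT3α in 14 of 69 cases, and kept sites with neighbours in 13 of 49. Among 30 min sites with 0, 1, 2 and 3 or more neighbours within 50 kb, the kept share was 3.02%, 2.73%, 2.58% and 4.83%, and all 4 intervals held the overall share of 3.03%. The last class was mixed. Sites with 3 neighbours made up 4.24% of kept and 4.61% of lost sites, and those with 4 made up 0.847% and 1.09%. Sites with 5 made up 4.24% of kept sites (5) and 0.822% of lost sites (31). Those with 8 were 2 kept and 2 lost sites, and those with 6 or 7 were all lost. Such sites share a few chains, and the difference was not tested.

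At each neighbour number the kept share was higher for sites that STAT3α cells listed at 30 min, with intervals that overlapped for 2 neighbours. Sites without neighbours were kept in 64 of 1286 cases (4.98%, interval 3.85 to 6.31%) where the STAT3α 30 min list held them and in 5 of 997 (0.502%, interval 0.163 to 1.17%) where it did not. With 1 neighbour the shares were 25 of 560 (4.46%) and 1 of 391 (0.256%). With 2 neighbours they were 10 of 256 (3.91%, interval 1.89 to 7.07%) and 0 of 132, with an upper 95% limit of 2.76%. With 3 or more neighbours, 13 of 176 sites in the STAT3α list were kept (7.39%, interval 3.99 to 12.3%), against 0 of 93 outside it, for which the upper 95% limit is 3.89%. The share of 30 min sites that STAT3α also held was 56.3% among lone sites and 65.4% among those with 3 or more neighbours.

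**Figure D3:**
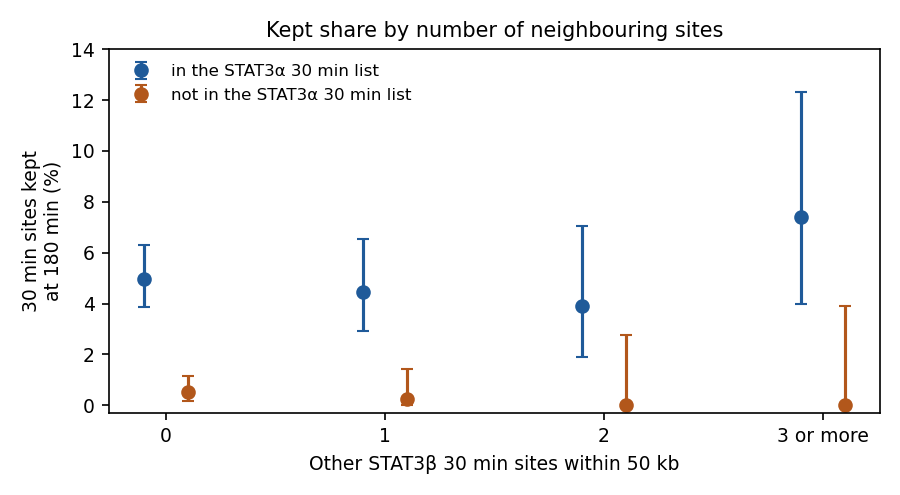
Share of STAT3β 30 min sites kept at 180 min (percent) by the number of other STAT3β 30 min sites within 50 kb, separately for sites in and outside the STAT3α 30 min list, with 95% exact binomial intervals. Sites in the STAT3α list range from 3.91 to 7.39%, and sites outside it from 0 to 0.502%.

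To describe loci rather than single sites, early sites no more than 50 kb from the next were joined into chains. The 3891 sites formed 2911 chains, of which 2283 were single sites and 86 held 4 or more. A kept site occurred in 116 chains, with 1 kept site in 114 of them and 2 in the other 2. Chains of 4 or more sites held a kept site in 14 of 86 cases (16.3%, interval 9.20 to 25.8%), against 69 of 2283 single sites (3.02%). A longer chain has more chances to hold one. Per site the kept share in such chains was 16 of 412 (3.88%, interval 2.24 to 6.23%), and this interval holds the overall share. In the 14 chains 65 of 81 sites were lost. Of these 65, 45 (69.2%) were in the STAT3α 30 min list, and none was in the STAT3α 180 min list. Over all 3773 lost sites these shares were 57.4% and 0.265%, so none of 65 is little different from the share over all. Each of these chains was thus reduced to 1 or 2 listed sites.

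The largest chains with a kept site were on chromosomes 2, 10 and 11. On chromosome 2, 10 sites spanned 154 kb from 167539123 to 167692667, and the only kept one was at 167602937 to 167603336. Its nearest early neighbour lay 12.0 kb away, and STAT3α cells listed it at 180 min too. On chromosome 10, 10 sites spanned 125 kb from 79496786 to 79621584, and 79538039 to 79538438 was kept, in STAT3β cells only. It had 5 early neighbours within 50 kb, the nearest at 4.14 kb.

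The chromosome 11 chain held the kept sites with most neighbours, with 9 sites over 63.3 kb from 117793600 to 117856935. The kept sites were at 117824769 to 117825168 and 117830560 to 117830959, 5.79 kb apart, each with 8 early neighbours within 50 kb. STAT3α cells listed both at 30 min and the second of them at 180 min. The lost neighbour at 117823497 was only 1.27 kb from the first kept site. Among the 9 sites 8 were in the STAT3α 30 min list.

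The other chain with 2 kept sites was on chromosome 8, with 6 sites over 43.0 kb from 87471037 to 87514060. Its kept sites, at 87500257 and 87502518, were the closest pair of kept sites in the genome, 2.26 kb apart. The first was listed at 0 min in STAT3β cells and at 30 and 180 min in both spliceforms. The second was listed at 30 min in both and at 180 min in STAT3β cells only. Neighbouring sites thus had different listing histories within a few kb.

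Other chains of 6 sites with a kept site held 1 each, at 95462428 on chromosome 3, 60556503 on chromosome 13 and 76028958 on chromosome 15. None of these 3 was in the STAT3α 180 min list. The chromosome 13 site lay 0.77 kb from a lost site at 60557273, which STAT3α cells lacked. Chains of 4 sites with a kept site held 1 each. These were at 164258134 on chromosome 2, 108662021 on chromosome 8, 82323016 on chromosome 10, and 86437776 and 100800888 on chromosome 11. The last were at 38400117 on chromosome 15 and 80115076 on chromosome 17. In the chain at 86437776, a lost site that began at 86385002 was one of the wider early sites.

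**Figure D4:**
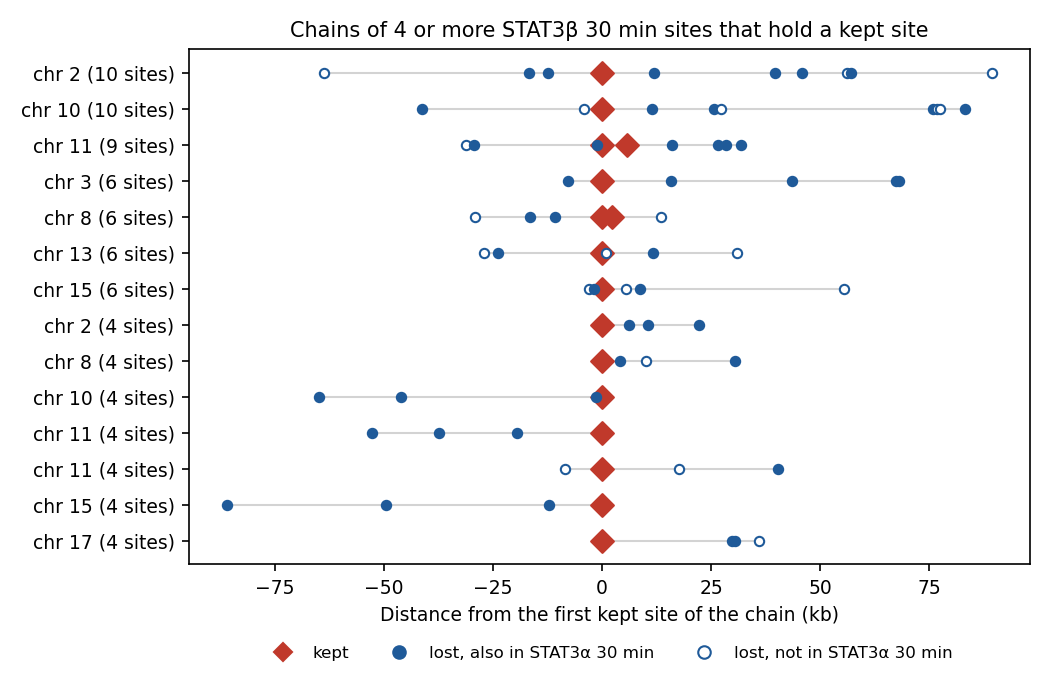
The 14 chains of 4 or more STAT3β 30 min sites that held a kept site, each drawn on its own line by distance in kb from its first kept site (red diamonds kept, filled blue circles lost and in the STAT3α 30 min list, open circles lost and not in it). Of the 81 sites, 16 were kept, and only the chains on chromosome 11 with 9 sites and on chromosome 8 with 6 sites kept 2.

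Not every dense chain held a kept site. A kept site occurred in 7 of the 17 chains with 6 or more sites, against 116 of all 2911 chains (3.98%). These 7 chains kept 1 of 10, 1 of 10, 2 of 9, 1 of 6, 2 of 6, 1 of 6 and 1 of 6 sites. The rest of the 17 kept none. A longer chain has more chances to hold one, and whether this accounts for the difference was not tested. The chains of 8 sites at chr5:91110969-91193504, chr11:51665693-51817970 and chr17:84353831-84512157 were lost whole. In the chromosome 11 chain all 8 lost sites had been in the STAT3α 30 min list, against 3 on chromosome 5 and 4 on chromosome 17.

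Kept sites were scattered over the genome. All 20 chromosomes with early sites carried at least 2, and chromosome 11 carried most, 15 of 319 early sites (4.70%, interval 2.66 to 7.64%). The lowest share was on chromosome 1, with 2 of 223 sites (0.897%, interval 0.109 to 3.20%). The median over chromosomes was 3.10%, and the interval of every chromosome held the overall share of 3.03%. Successive kept sites on a chromosome were a median of 6402 kb apart, and 2 of 98 such pairs were within 50 kb, those on chromosomes 8 and 11 described above. Another 3 pairs were within 200 kb, at 116379848 and 116527938 on chromosome 11, 36538768 and 36723534 on chromosome 15, and 15887096 and 15992126 on chromosome 16.

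**Figure D5:**
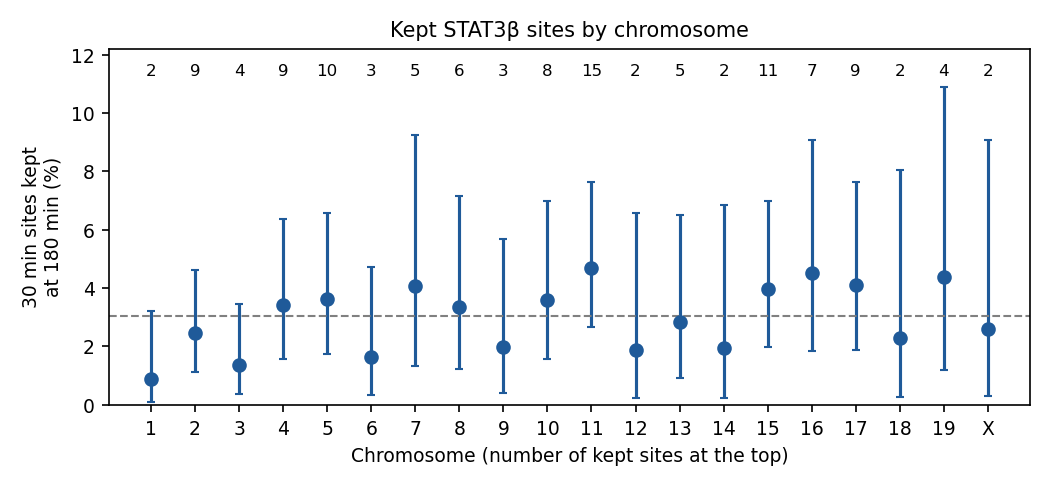
Share of STAT3β 30 min sites kept at 180 min (percent) on each chromosome, with 95% exact binomial intervals, the number of kept sites at the top and the share over all chromosomes as a dashed line. Shares run from 0.897% on chromosome 1 to 4.70% on chromosome 11, and each interval includes 3.03%.

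The remaining loci are given by their start, each 400 bp long. The 27 late sites that STAT3α cells shared with STAT3β include, beside those named, 88422734 on chromosome 1, 160051121 on chromosome 2, 65331908 and 107563034 on chromosome 3, and 151236381 and 151699618 on chromosome 4. They continue with 122608016 on chromosome 5, 48791239 and 108609884 on chromosome 6, 20401600 on chromosome 7, 74651938 and 121534294 on chromosome 11, and 73186758 on chromosome 12. The last of them were 113253967 on chromosome 13, 76456294 on chromosome 15, 24393710 on chromosome 16 and 47874911 on chromosome 17. The site on chromosome 12 was the most isolated kept site, 1538 kb from any other early STAT3β site. The sites on chromosomes 7 and 16 had an early neighbour at 1.10 and 1.05 kb, which was lost.

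The kept sites that STAT3α cells listed at 30 min only were spread in the same way. On chromosome 1 there was 52170535, and on chromosome 2 there were 30297184, 35955264, 104333611, 120796273, 150735344 and 167088795. Chromosome 3 had 122424366, and chromosome 4 had 40669290 and 106520512 besides 149329155. Chromosome 5 had 8 of them, 72950764, 105722629, 107237479, 110536563, 125754024, 129526164, 134659786 and 139625506. Of these 8 chromosome 5 sites only 125754024 had an early STAT3β neighbour within 50 kb. On chromosomes 6, 7 and 9 they were 51962501, then 25255228, 52409494, 72515664 and 88974188, then 42914098, 69860099 and 100543699, and none of these had such a neighbour.

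Chromosome 8 added 85394831 and 97855567, and chromosome 10 added 19653673, 56676664, 78054557, 80392301 and 127707176. Chromosome 10 had 8 kept sites and none in the STAT3α 180 min list, which held no site on that chromosome. On chromosome 11 the further sites were 29592713, 60033961, 80631595, 84953443, 98543583, 106134252 and 113545709. Chromosome 12 had 81954731, chromosome 13 had 34094416, 63256467 and 98280603, and chromosome 14 had 26544544 and 76186641. The site at 81954731 belonged to a chain of 3 sites that STAT3α cells held in full at 30 min.

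On chromosome 15 the further sites were 10911277, 44259242, 63829486, 83053935 and 102077351, and on chromosome 16 they were 8829966, 11008244, 50528847 and 55822173. Chromosome 17 added 4907939, 17999458, 27962852, 34168541, 34973581, 44951688 and 81290987, of which only 17999458 had an early STAT3β neighbour within 50 kb. Chromosome 18 had 50138847 and 69503847, chromosome 19 had 5473627, 9028049 and 42055603, and the X chromosome had 12857372 and 148450573. Both X-linked sites were absent from the STAT3α 180 min list, which held none on that chromosome.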

How the data were processed

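Each of 6 ChIP samples has 1 deposited peak list of chromosome, start, end and name. Per the labels, duplicates were prepared and reads were merged. The build is mm9, per the submitters' processing notes, which also list HOMER 4.9, MACS2 2.1.1.20160309, STAR 2.5.0a, Trim Galore 0.4.2 and bedtools. Tool roles and a peak threshold were not given in the sources used here. Chromatin was fixed with 1% formaldehyde for 10 min and sheared to 200 to 500 bp. Depth is unknown, and 2 input samples were not analysed here.

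From the lists, sites were matched by identical coordinates, distances ran between centres, and shares got exact (Clopper-Pearson) intervals. Chains and neighbour counts used 50 kb. Named sites were all kept and new sites, and lost sites of the STAT3α 180 min or a 0 min list. The lost sites and chains were picked after their values were seen. The sites and rules were chosen with earlier results of these data known. The gene table at hand is of GRCm38 and was not used. The matching and distance functions were tested on simulated data. Python 3.11.15, numpy 2.4.6, scipy 1.17.1 and matplotlib 3.10.9 were used.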

Additional observations from a re-analysis of the deposited data

How the results depend on the processing

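Of 46 alternative values for 15 results, 36 stayed within the interval or limit set around the reported value. Every alternative that matched sites by overlap gave the same count as identical coordinates. A site that overlapped one in the other list thus always had an identical one there, so these alternatives add no separate check. The kept share of 3.03% ranged from 2.83 to 3.14% over 7 other matching rules and site choices. It was 3.98% when chains of sites, kept when any site was, replaced single sites. New sites numbered 1 in place of 2 without STAT3β 0 min positions, and 1 without the rounded Mb as well. The kept share of sites in the STAT3α 30 min list, 4.92%, was 3.79% without STAT3α 180 min sites. Shares with a neighbour within 5, 50 and 100 kb were 11.9%, 41.5% and 59.3% for kept and 11.7%, 41.3% and 56.8% for lost sites, because the distance sets them. The chain, lone-site, 100 kb and STAT3α 180 min alternatives were chosen after seeing the data. Start-site distance, motif and gene-list results need mm9 and were not run. No paired analysis was possible because each group has 1 list.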
